A study of Danio rerio and Xenopus laevis and Xenopus tropicalis with 8 samples.

Results

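The RNA that a zebrafish embryo inherits from the egg was compared between 2 stages, gastrulation at 6 h after fertilization and the one-cell stage. The comparison used 4 of the 8 samples of the series. The 6 h sample was 1 scSLAM-seq library, a single-cell method that marks newly made RNA. AB wild-type embryos had received the nucleotide 4sUTP at the one-cell stage, and shield-stage embryos were pooled, freed of yolk, dissociated and fixed in methanol. RNA made after the injection carries the nucleotide and is read as labeled. RNA without it is read as unlabeled, and this pool was taken as the inherited one. The one-cell samples were 3 untreated AB wild-type embryos, frozen about 30 min after fertilization and cut into 96 sections by tomo-seq, which counts RNA per section. The sections were summed per embryo, and the unlabeled counts were summed over the 6847 barcodes, of 737280, with at least 150 labeled and 150 unlabeled genes. Genes were matched by identifier, which gave 19139 genes. All levels are CPM over these genes, that is, counts scaled to a common total. With 1 library at 6 h, no test across samples was made and every difference is a description. Stage, library method, gene annotation, 4sUTP injection and removal of the yolk all differ between the 2 groups and cannot be told apart. Poly-dT primers, which bind the run of A (poly(A) tail) at the end of an mRNA, were used for the one-cell RNA. The 6 h library was made with a 3' kit. Tail length was not measured, and its part in the levels was not tested. CPM is a share of a pool. The amount of RNA per embryo was not measured. Counts at 6 h were summed over cells, so these levels do not separate fewer cells with an RNA from less of it per cell. Counts per cell were not compared here.

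Before its genome is active, the zebrafish embryo runs on mRNA and protein stored in the egg. Cleavage divisions proceed on these stores, and the embryo then starts to transcribe while a large part of the stored mRNA is degraded, a handover known as the maternal-to-zygotic transition. Removal relies on factors that the egg supplies, such as the CCR4-NOT deadenylase, and on factors that the embryo makes, among which the microRNA miR-430 is the best known in zebrafish. Some stored RNAs, such as those of the germ plasm, are protected in the cells that will form the germ line.

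Embryo 3 stood apart from the other one-cell embryos. Its UMIs, the random tags that count molecules, had 4 nt against 6 nt in embryos 1 and 2, so that a gene could not exceed 1597 counts in a section, and 76 genes reached this ceiling in at least one section. Mitochondrial RNA made up 1.71% of its counts, against 20.7% in embryo 1 and 21.6% in embryo 2, and 22.8% in the unlabeled RNA at 6 h. Matched counts summed to 8418139 at 6 h, against 7025439, 8826370 and 27718790 in embryos 1, 2 and 3. Across the 6836 genes described below, log2 levels correlated at 0.87, 0.69 and 0.81 between pairs of embryos, and the 6 h library correlated with the embryos at 0.27, 0.28 and 0.34. The points of these correlations are genes, which are not replicates. The per-embryo values are given below because of this spread.

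The labels were checked against genes known to be transcribed by the embryo rather than stored in the egg. Of 19 such control genes listed, 13 were matched, among them sox17, chrd, noto and tbxta, which act in the endoderm, the organizer, the notochord and the mesoderm. Labeled RNA made up 84.4% to 95.1% of their counts at 6 h. No control gene exceeded 6.72 CPM in any one-cell embryo. Some RNA made by the embryo was nevertheless read as unlabeled, since the unlabeled counts of these genes were between 5.17% and 18.5% of their labeled counts, with a median of 9.52%. This leak adds to the unlabeled counts of genes with much labeled RNA, and the labeled share is therefore given beside many of the levels below. Markers of the enveloping layer, the outer cell sheet of the early embryo, summed to 262 CPM at 6 h, against 12.8, 6.46 and 7.97 CPM in embryos 1, 2 and 3, with at least 86% of their 6 h counts labeled. Markers of the yolk syncytial layer summed to 1.90 CPM at 6 h, against 1.99 to 5.85 CPM in the embryos, and 66.7% to 100% of the 6 h counts of each were labeled, so that unlabeled RNA does not show how far this layer was sampled. The 2 matched markers of red blood cells, ovarian follicle or other adult tissue summed to 0.24 CPM at 6 h, against at most 0.22 CPM in any embryo.

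A gene was described when its one-cell mean and its 6 h level averaged at least 10 CPM, which held for 6836 of the 19139 matched genes. L is the difference between log2(CPM + 1) of unlabeled RNA at 6 h and the mean log2(CPM + 1) of the 3 embryos. A gene was called lower at an L of -2 or below, that is 4-fold, if its 6 h level was also below every embryo, and higher by the mirrored rule. It was called kept when L lay between -1 and 1. By these rules 2383 genes (34.9% of the described genes) were lower, 1901 (27.8%) were kept and 896 (13.1%) were higher, and the remaining 1656 were intermediate. A further 12 genes passed -2, and 12 passed 2, without leaving the range of the embryos. Within 0.02 of the boundary at -2, 28 genes fell just inside the lower class and 20 just outside it. The median L of all described genes was -0.99, with quartiles at -2.72 and 0.77.

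The lower genes held a large part of the one-cell RNA and little of the RNA at 6 h. They made up 3.05% of unlabeled CPM at 6 h, against 49.1%, 47.2% and 36.9% in embryos 1, 2 and 3. The higher genes made up 51.9% at 6 h, against 4.42%, 5.11% and 9.18% in the embryos. The kept genes made up 23.6% at 6 h, against 25.7%, 26.3% and 28.2%. The classes were chosen on these same levels, so the direction of the differences for lower and higher genes is fixed by the rule. Since CPM is a share, loss of abundant RNAs raises the share of all others. A common scaling therefore matters for the counts. With edgeR's TMM factors, the median L moved to -0.24 and the classes held 1733 lower and 1366 higher genes, so that lower genes were 55.9% of both classes together, compared with 72.7% without the factors. The abundant RNAs of the egg were more often lower. When the genes were divided into 5 equal groups by their one-cell mean, in the group with the highest mean (from 177 CPM), 46.96% were lower and 6.88% higher, and in that with the lowest mean (up to 21.9 CPM) 8.70% were lower and 34.8% higher. The one-cell level enters both the grouping and L, and the lowest group passed the minimum mainly through its 6 h level.

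**Figure D1:**
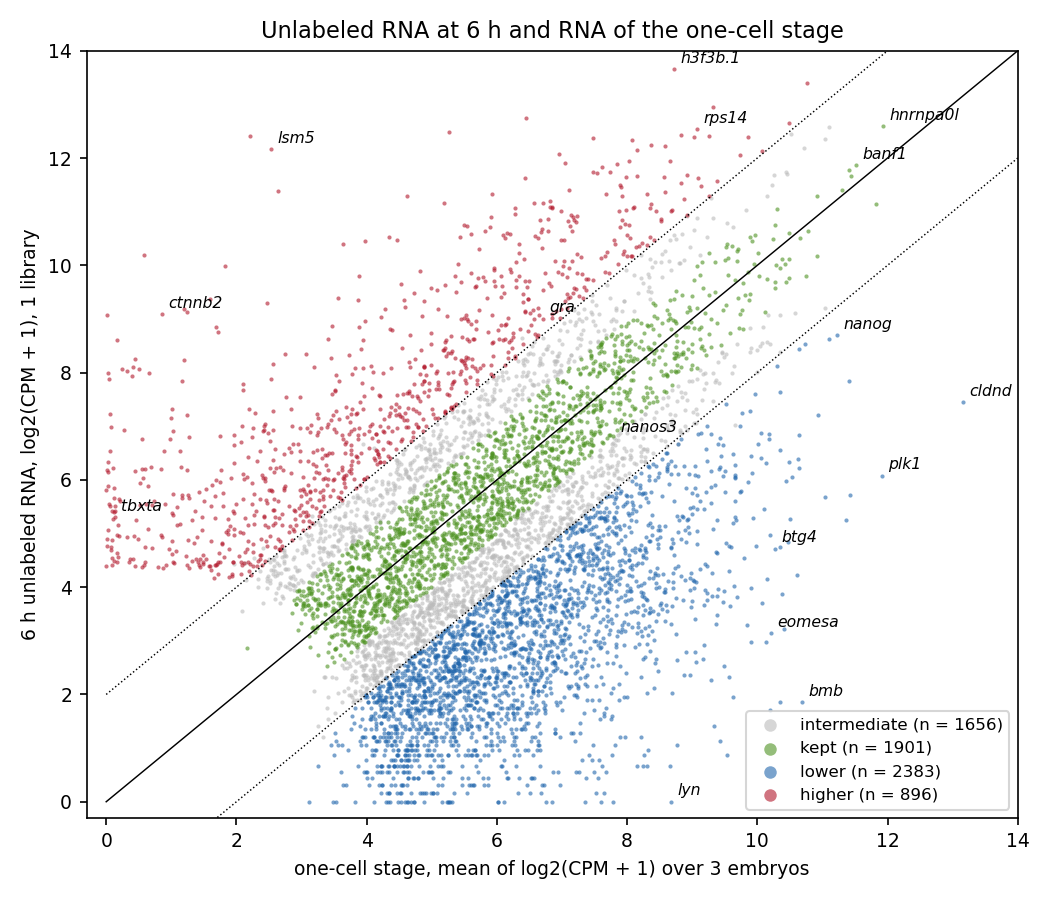
Each point is one of the 6836 described genes, with the mean log2(CPM + 1) of 3 one-cell embryos on the x axis and log2(CPM + 1) of unlabeled RNA in the 6 h library on the y axis, colored by class. The solid line marks equal levels and the dotted lines a 4-fold difference. The 2383 lower genes extend to the highest one-cell levels, as for cldnd and plk1, and the 896 higher genes include genes near 0 in the embryos, such as ctnnb2.

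The RNA with the lowest L among genes of at least 50 CPM at the one-cell stage was bmb (brambleberry, ENSDARG00000096603, on chromosome 25 of GRCz10). In zebrafish its protein is needed for the fusion of the membranes around single chromosomes in the dividing cleavage-stage embryo. bmb had 2.61 CPM at 6 h, with an exact Poisson 95% interval of 1.64 to 3.96, against 1727, 2483 and 1051 CPM in embryos 1, 2 and 3, and 64.5% of its 6 h counts were labeled. The level was 671-fold lower at 6 h than the one-cell mean, with L at -8.84. Intervals given here cover counting error only.

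A gene of the Src family of tyrosine kinases, lyn, had neither an unlabeled nor a labeled count in the cells at 6 h, against 985, 657 and 105 CPM in the embryos. Over all barcodes of the 6 h library, cells or not, lyn had 5 counts of either kind. Set against the 3 counts that a count of 0 allows, which is 0.356 CPM, its unlabeled level in cells was at least 1634-fold lower. sytl3, a synaptotagmin-like gene of vesicle traffic, had 0 counts of either kind in any barcode at 6 h, against 325, 222 and 145 CPM. In all, 32 lower genes had no unlabeled count in cells at 6 h, of which 11 had labeled counts and 21 had none. For 14 of these 21, sytl3 among them, no barcode held a count of either kind, and whether the 6 h library could count these genes was not tested.

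mat2aa, which encodes the enzyme that makes S-adenosylmethionine, had 2.61 CPM at 6 h with 67.2% labeled, against 1179, 1222 and 1512 CPM, the closest agreement among embryos in these 12 genes. wdr20a, whose human counterpart is a cofactor of deubiquitinases, had 0.83 CPM at 6 h, against 2114, 1364 and 138 CPM. gnao1a, an alpha subunit of a trimeric G protein, had 1.19 CPM at 6 h, against 1253, 843 and 306 CPM. Embryo 3 was the lowest of the embryos for wdr20a and gnao1a but the highest for mat2aa, so the embryos did not differ by a common factor.

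The chloride channel gene ano1 had 1.07 CPM at 6 h, against 2013, 410 and 97.3 CPM. The lipase gene lipg had 2.85 CPM at 6 h, against 642, 1123 and 678 CPM. zufsp, which encodes a ubiquitin-specific peptidase, had 0.59 CPM at 6 h, against 442, 469 and 315 CPM, with 76.2% labeled. The other genes named by this rule were zmiz1a, zgc:114123 and zgc:153345, at 0.59 to 2.26 CPM at 6 h. The L of these 12 genes lay between -8.84 and -7.63.

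Among lower genes with little labeled RNA, the most abundant at the one-cell stage was the claudin gene cldnd, which encodes a tight-junction protein. It had 174 CPM at 6 h, against 20114, 16358 and 2321 CPM in embryos 1, 2 and 3, and only 5.04% of its counts at 6 h were labeled. Another claudin gene, cldng, had 82.6 CPM at 6 h, against 350, 5468 and 2049 CPM. The 6 h level of both lay below every embryo, as the rule for lower genes requires.

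The 12 kept genes with the highest one-cell levels include several RNA-binding protein genes. cirbpa, a cold-inducible RNA-binding protein gene, had 2699 CPM at 6 h, against 2638, 2676 and 2241 CPM in the embryos, with L at 0.10. Its paralog cirbpb had 3233 CPM at 6 h, against 4293, 4112 and 1229 CPM. hnrnpa0l, which encodes an RNA-binding protein of nuclear ribonucleoprotein particles, had 6196 CPM at 6 h, against 3918, 5490 and 2793 CPM, with L at 0.66. The mRNA export factor gene alyref had 2257 CPM at 6 h, against 6113, 4827 and 1605 CPM.

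Also among the 12 were h2afva, a histone H2A variant, with 1598 CPM at 6 h, against 1692, 2592 and 1226 CPM, and banf1, which encodes a DNA-bridging protein of the nuclear envelope, with 3743 CPM at 6 h, against 7964, 4166 and 762.2 CPM. The chaperone gene hsp90ab1 had 3501 CPM at 6 h, against 5155, 3730 and 1053 CPM. The 6 h level of banf1 lay inside the wide range of the embryos, and its call of kept rests on their mean. rac1a, polr2i, nono, hmga1a and cdca7a completed the 12. Most of these calls depended on the processing. With median-of-ratios size factors, another common scaling, L passed 1 for banf1 (1.25), hsp90ab1 (1.26), hnrnpa0l (1.56), cirbpb (1.11) and hmga1a (1.28). Without embryo 3, L passed -1 for alyref (-1.27), polr2i (-1.32), rac1a (-1.48) and cdca7a (-1.26). Without embryo 1, L of nono was -1.60. Of the 12, only h2afva had an L between -1 and 1 under every alternative. Kept does not mean that only inherited RNA was present, since 68.1% of the hmga1a counts and 57.5% of the h2afva counts at 6 h were labeled.

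The higher genes, like all described genes, spread widely in their labeled share. Of the 896, 280 (31.25%, beside 37.1% of all described genes) had more than 50% of their counts labeled at 6 h. Less than 20% were labeled in 333 (37.2%, beside 28.3%). The unlabeled count enters both the call and the labeled share, so higher genes lean to a low share by construction. All 3 described control genes of the embryo, vox, tbx16 and tbxta, were called higher, with a median L of 6.31. The 3 described markers of the enveloping layer were called higher as well. A call of higher therefore does not show that an RNA was inherited. nnr had 253 CPM unlabeled at 6 h and a total of 2 counts over all embryos, and 94.95% of its counts at 6 h were labeled. apoc1, an apolipoprotein gene, had 579 CPM unlabeled at 6 h, against 1.00, 1.13 and 1.81 CPM, with 86.2% labeled. When embryo-made RNA read as unlabeled was subtracted at the ratio of the control genes, L of nnr was -0.0336, and 807 of the 896 genes remained higher.

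Of the 333 higher genes with under 20% labeled, 226 had a one-cell mean of at least 10 CPM and 14 a mean below 1 CPM. Some of those scarce at the one-cell stage are among the genes with the highest L. ctnnb2, one of the 2 beta-catenin genes of zebrafish whose product in the egg is needed for the dorsal side of the zebrafish embryo, had 544 CPM at 6 h, against 0.43, 0.57 and 1.63 CPM in the embryos. Its labeled share at 6 h was 5.61%, with a Clopper-Pearson 95% interval of 4.98% to 6.29%. Its paralog ctnnb1 had 459 CPM at 6 h, against 3.27, 0.23 and 5.45 CPM, with 26.1% labeled. lsm5, a subunit of the ring that binds U6 RNA and decapping substrates, had 4592 CPM at 6 h, against 1.00, 4.42 and 16.8 CPM, with 6.56% labeled.

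tmem50a, a membrane protein gene, had 1166 CPM at 6 h, against 1.00, 0.34 and 0.25 CPM, with 6.07% labeled. si:ch1073-190k2.1 had 5433 CPM at 6 h, against 97.4 CPM in embryo 1 and 0 in embryos 2 and 3. sec61b, a subunit of the protein channel of the endoplasmic reticulum, had 6885 CPM at 6 h, against 26.2, 143 and 169 CPM, with 6.10% labeled. Whether the 2 methods counted these genes alike was not tested.

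The labeled share at 6 h separated groups of lower genes as well. Over all described genes its median was 38.2%, and in the lower class it was 47.1%. In that class 492 genes were under 20% (20.6%, beside 28.3% of all described genes) and 1103 over 50% (46.3%, beside 37.1%). The kept and the higher class had medians of 33.4% and 29.2%. The unlabeled count at 6 h enters both L and the labeled share. A low count lowers L and raises the share, so part of this order is built in. Genes of both extremes of the share are described next by function, first those of the egg.

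**Figure D2:**
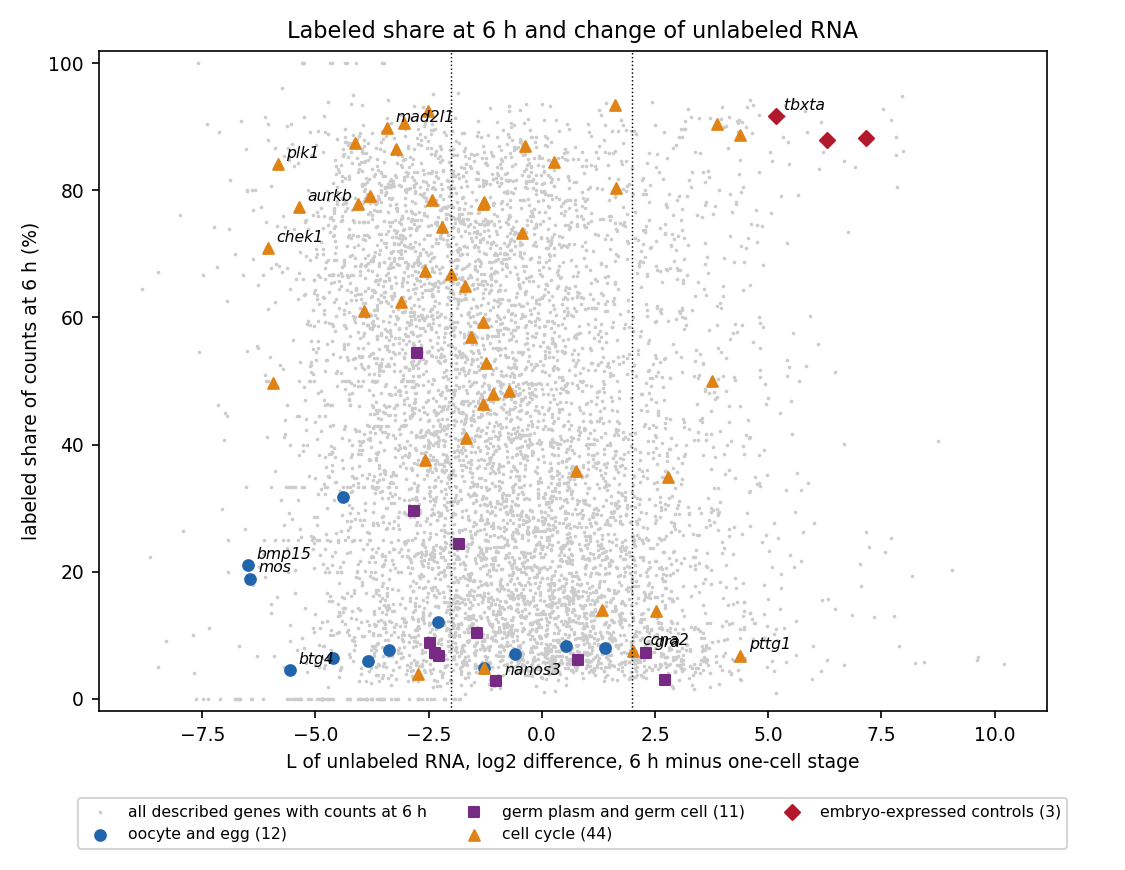
Each gray point is a described gene with counts at 6 h, with L of unlabeled RNA on the x axis and the labeled share of its counts at 6 h in percent on the y axis. Dotted lines mark L of -2 and 2, and the unlabeled count at 6 h enters both axes. Genes of the oocyte and egg (circles) and of the germ plasm (squares) lie mostly low on the y axis, with medians of 7.80% and 7.17%, and genes of the cell cycle (triangles) mostly high, with a median of 67.1%.

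Genes of the oocyte and egg had the lowest median L of the lists, -3.61, beside -0.99 over all described genes. Of 15 listed genes 12 were matched and described, of which 8 (66.7%, beside 34.9% of all genes) were lower. Another 2 were kept (16.7%, beside 27.8%) and none was higher (beside 13.1%). Their labeled share at 6 h ranged from 4.48% to 31.7%. btg4, which in the mouse brings the CCR4-NOT deadenylase to maternal mRNA, had 25.3 CPM at 6 h, against 929, 1654 and 1246 CPM in embryos 1, 2 and 3. mos, a kinase that holds the vertebrate egg in meiotic arrest, had 5.11 CPM at 6 h, against 320, 691 and 690 CPM. bmp15, an oocyte growth factor, had 5.35 CPM at 6 h, against 3024, 202 and 307 CPM. All 3 were lower, a call that requires a 6 h level below every embryo, and bmp15 varied more than 10-fold between the embryos.

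Some regulators of translation in the oocyte were lower as well, but not zar1. zar1l had 19.96 CPM at 6 h, against 140, 511 and 1180 CPM, and cpeb1b, which binds a polyadenylation element in stored mRNA, had 32.3 CPM at 6 h, against 347, 619 and 500 CPM. patl2 had 6.89 CPM at 6 h, against 156, 254 and 175 CPM. The other lower members were org and figla. ccna1, the cyclin A of the early embryo, was intermediate with 538 CPM at 6 h, against 1536, 1081 and 1326 CPM, and 4.75% of its counts were labeled. zp3b, an egg coat gene, was kept with 86.8 CPM at 6 h, against 47.6, 40.96 and 110 CPM. zar1 had 71.3 CPM at 6 h, against 58.6, 13.2 and 23.3 CPM, above each embryo, and its L was 1.40, whereas that of zar1l was -4.39.

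Germ plasm and germ cell genes showed all outcomes. Of 15 listed, 12 were matched and 11 described, of which 5 were lower (45.5%, beside 34.9% of all genes), 3 intermediate, 1 kept (9.09%, beside 27.8%) and 2 higher (18.2%, beside 13.1%), with a median L of -1.84. buc, the organizer of the germ plasm in zebrafish, had 25.3 CPM at 6 h, against 82.7, 200 and 376 CPM in the embryos. dazl, an RNA-binding protein gene of germ cells, had 26.1 CPM at 6 h, against 130, 81.7 and 249 CPM. dnd1, which shields germ cell mRNA from microRNA in zebrafish, had 51.6 CPM at 6 h, against 315, 209 and 244 CPM. tdrd1 and tdrd7a, Tudor domain genes of germ granules, were lower as well, with 6.18 and 13.7 CPM at 6 h.

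nanos3, a translational repressor that germ cells need to survive, had 109 CPM at 6 h, against 106, 220 and 468 CPM, and thus lay within the range of the embryos. Its L was -1.02, and 2.75% of its counts were labeled. ddx4 (vasa), an RNA helicase of germ granules, was kept with 144 CPM at 6 h, against 86.1, 95.9 and 68.99 CPM. gra (granulito) had 514 CPM at 6 h, against 100, 88.3 and 127 CPM, and tdrd9, a helicase gene of the piRNA pathway, had 38.5 CPM at 6 h, against 3.13, 4.08 and 9.40 CPM. Only 7.15% of the gra counts and 2.99% of the tdrd9 counts at 6 h were labeled, so these genes were higher with little RNA read as new. ca15b was intermediate with 92.2 CPM at 6 h, against 312, 176 and 287 CPM, as was piwil2 with 6.65 CPM, against 29.9, 36.4 and 16.8 CPM. tdrd7a, with 54.4%, was the one member with more labeled than unlabeled counts.

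**Figure D3:**
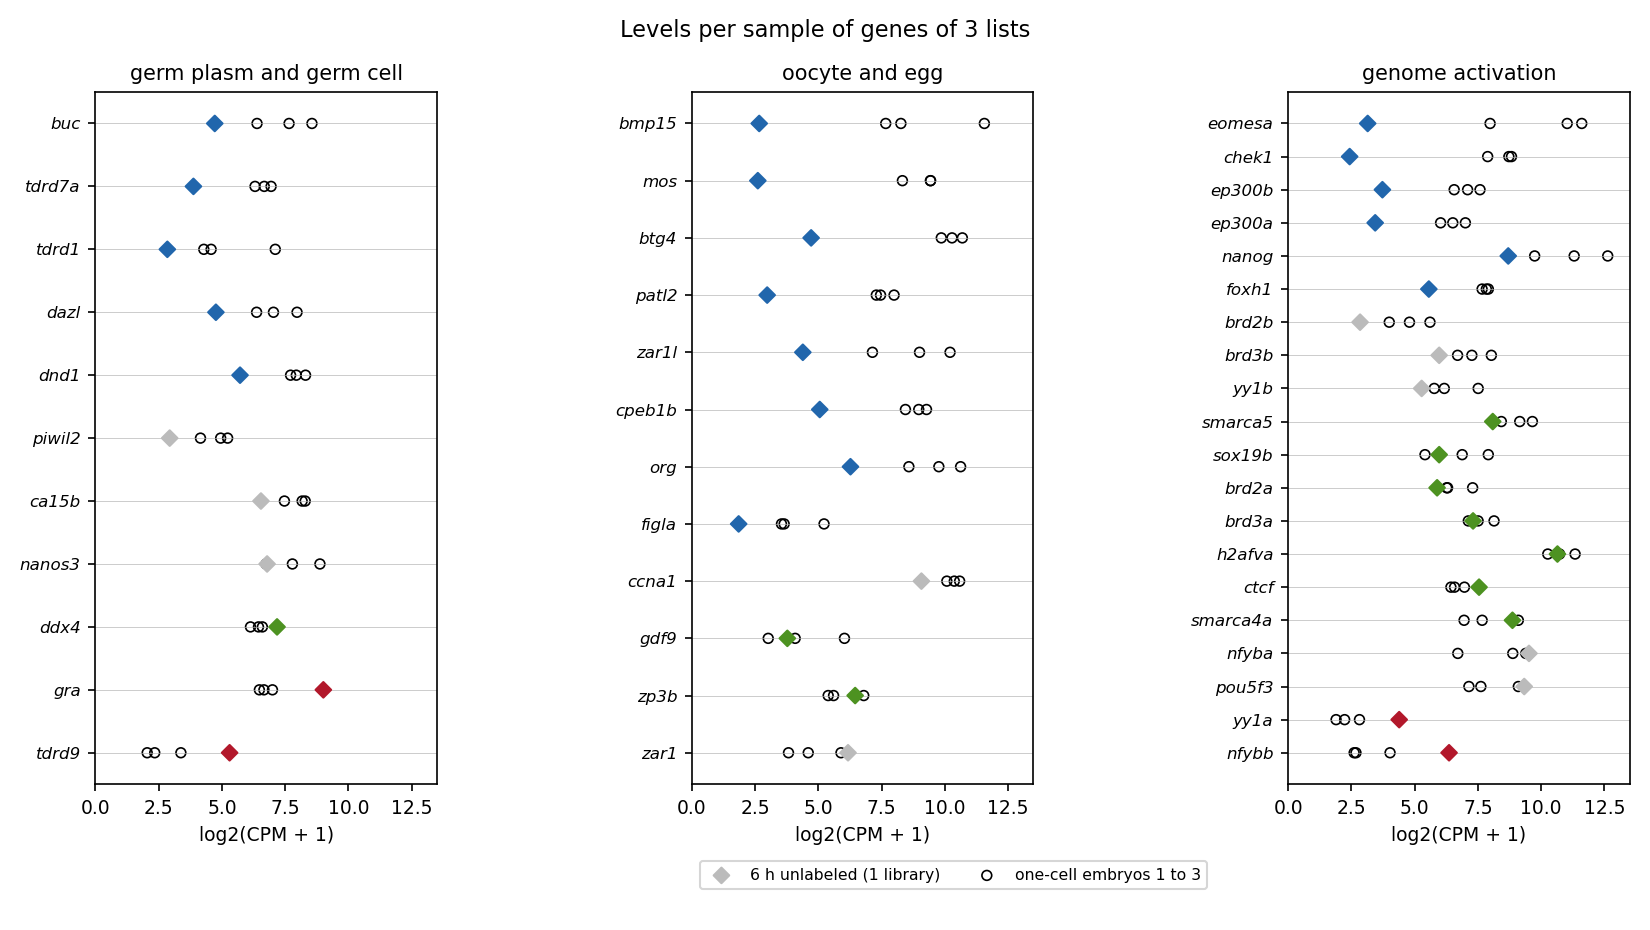
For described genes of 3 lists that are reported by name, log2(CPM + 1) is given on the x axis for the 6 h unlabeled library (diamonds, blue lower, green kept, red higher, gray intermediate) and for each of 3 one-cell embryos (open circles), with genes in rows ordered by L. The diamond lies left of all circles for buc, btg4 and eomesa, among them for nanos3, and right of them for gra and tdrd9.

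Genes that open the genome were near the level of the whole pool, with 6 lower, 8 kept, 3 higher and 5 intermediate among 22 described of 28 listed, and a median L of -0.78. The shares were 27.3% lower, 36.4% kept and 13.6% higher, beside 34.9%, 27.8% and 13.1% of all genes. With median-of-ratios size factors the median was 0.11. nanog, a pioneer factor of genome activation in zebrafish, had 414 CPM at 6 h, against 6336, 2527 and 855 CPM, and was lower at L of -2.53. Its partner factors did not share this. pou5f3 had 643 CPM at 6 h, against 140, 195 and 547 CPM, and was intermediate, above each embryo. sox19b was kept with 61.7 CPM at 6 h, against 41.5, 117 and 240 CPM.

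eomesa, a T-box factor of the early mesendoderm, was among the lowest of these with 7.84 CPM at 6 h, against 3110, 2087 and 252 CPM. foxh1, which carries Nodal signals, had 46.2 CPM at 6 h, against 240, 227 and 202 CPM, and 84.5% of its counts at 6 h were labeled. With labeled and unlabeled counts together, its L was -0.38. ep300a and ep300b, which encode histone acetyltransferases, had 9.86 and 12.2 CPM at 6 h, against 64.1 to 127 CPM and 93.4 to 191 CPM, with 72.9% and 74.4% labeled. nfybb, a subunit gene of the NF-Y factor, was higher with 81.1 CPM at 6 h, against 5.41, 5.10 and 15.3 CPM, and 29.1% labeled. yy1a was called higher with 19.96 CPM at 6 h, against 3.70, 2.72 and 6.06 CPM, but 88.9% of its 6 h counts were labeled, and its L of 2.07 became 0.29 when embryo-made RNA read as unlabeled was subtracted. The bromodomain genes brd2a and brd3a and the remodeler genes smarca4a and smarca5 were kept, as were ctcf and h2afva, while brd2b, brd3b, yy1b and nfyba were intermediate.

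The list of RNA removal genes also holds genes that package, bind or repress mRNA, such as ybx1, pabpc1a and lsm14b. Its members were lower about as often as all genes. They were not divided by role, so the counts that follow do not describe removal genes alone. Of 51 listed, 45 were matched and 38 described, with 13 lower (34.2%, beside 34.9% of all genes, btg4 among them), 15 kept (39.5%, beside 27.8%), 9 intermediate and 1 higher (2.63%, beside 13.1%), and a median L of -1.58. Within the CCR4-NOT complex, cnot7, a catalytic subunit, had 1.31 CPM at 6 h, against 81.6, 84.1 and 115 CPM. The scaffold gene cnot1 had 42.8 CPM at 6 h, against 130, 211 and 203 CPM. cnot8, the other catalytic subunit of the same family, had 334 CPM at 6 h, against 3405, 1679 and 382 CPM, and was intermediate. cnot2, cnot3b, cnot9 and cnot11 were kept.

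Outside that complex, zfp36l2, which directs decay of AU-rich mRNA, had 9.38 CPM at 6 h, against 342, 536 and 226 CPM. tnrc6a, the scaffold that joins Argonaute to the deadenylases, had 54.2 CPM at 6 h, against 575, 1403 and 790 CPM, and 83.1% of its counts were labeled. lsm14b, which represses stored mRNA, had 93.5 CPM at 6 h, against 1781, 3688 and 332 CPM, with 7.63% labeled. ythdf2, a reader of methylated adenosine that promotes maternal mRNA decay in zebrafish, was kept with 385 CPM at 6 h, against 402, 407 and 116 CPM. The poly(A)-binding protein gene pabpc1a was kept with 1289 CPM at 6 h, against 540, 521 and 1387 CPM. ybx1, an mRNA-packaging protein gene, was higher with 2833 CPM at 6 h, against 272, 200 and 250 CPM, and 52.6% labeled.

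Cell cycle genes that were lower in the unlabeled pool mostly had more labeled than unlabeled RNA at 6 h. Of 55 listed, 48 were matched and 44 described, with 18 lower (40.9%, beside 34.9% of all genes), 5 kept (11.4%, beside 27.8%), 14 intermediate and 7 higher (15.9%, beside 13.1%), and a median L of -1.43. More than 50% of the 6 h counts were labeled in 15 of the 18 lower genes, beside 46.3% of all lower genes. plk1, a mitotic kinase, had 66.6 CPM at 6 h, against 8372, 4661 and 1463 CPM, and 84.2% of its counts at 6 h were labeled. aurkb, the kinase of the chromosomal passenger complex, had 50.1 CPM at 6 h, against 1243, 4718 and 1576 CPM, with 77.3% labeled. chek1, the kinase of the replication checkpoint that slows the cycle when cleavage ends, had 4.40 CPM at 6 h, against 453, 422 and 235 CPM, with 70.9% labeled.

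The total level at 6 h was not near that of the one-cell stage for all of these. With labeled and unlabeled counts together, plk1 had an L of -3.99 and aurkb of -4.05. mad2l1, of the spindle checkpoint, had 108 CPM unlabeled at 6 h, against 1699, 2602 and 346 CPM, and its L over both kinds of RNA was -0.94. For birc5a, a survivin gene, the unlabeled level was 26.4 CPM at 6 h, against 46.3, 208 and 384 CPM, and L over both kinds was 0.37. Over all 2383 lower genes, 83 had a total level at 6 h within 2-fold of the one-cell level, beside 1960 of all 6836 described genes. The unlabeled count is part of the total, so lower genes lean to a low total by construction. wee2, a kinase of oocyte meiosis, was lower with 101 CPM at 6 h, against 1033, 411 and 720 CPM, and 3.85% labeled, unlike its paralog wee1, with 90.6% labeled.

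Cell cycle genes in the higher class included pttg1 (securin), with 2350 CPM at 6 h, against 171, 68.6 and 118 CPM, and 6.77% labeled. ccna2, the somatic cyclin A, had 1969 CPM at 6 h, against 194, 771 and 755 CPM, with 7.46% labeled. Thus the 2 cyclin A genes lay on either side of the one-cell level, with ccna1 at an L of -1.27 and ccna2 at 2.02. ccne1 had 913 CPM at 6 h, against 61.4, 127 and 498 CPM, with 13.8% labeled. The replication clamp gene pcna was kept with 866 CPM at 6 h, against 1056, 1674 and 1646 CPM.

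Genes of the dorsal axis and Wnt signaling were lower in 8 of 15 described (53.3%, beside 34.9% of all genes), of 26 listed and 19 matched, with a median L of -2.06. sybu and grip2a, whose vegetal RNAs act in the transport of the dorsal determinant in zebrafish, had 0.24 and 3.09 CPM at 6 h, against 25.8 to 53.1 CPM and 61.4 to 132 CPM in the embryos. The sybu value rests on 2 counts at 6 h, with an exact Poisson 95% interval of 0.0288 to 0.858 CPM. lef1, a transcription factor that acts with beta-catenin, had 3.21 CPM at 6 h, against 33.3, 32.2 and 66.7 CPM, with 70.3% labeled. The destruction complex genes apc and axin1 were lower at 21.9 and 25.2 CPM at 6 h, and csnk1a1 was kept with 340 CPM, against 188, 351 and 252 CPM. The 2 higher members (13.3%, beside 13.1% of all genes) were ctnnb1 and ctnnb2, given above. In all, 2 members were kept (13.3%, beside 27.8%) and 3 intermediate.

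In the Nodal and BMP pathway, 10 of 31 listed genes were described, with 25 matched, and 5 of them were lower (50%, beside 34.9% of all genes). Another 1 was kept (10%, beside 27.8%), 1 higher (10%, beside 13.1%) and 3 intermediate. The ligand gene gdf3 (vg1), which the egg supplies for Nodal signaling, was kept with 195 CPM at 6 h, against 219, 159 and 903 CPM. The Nodal co-receptor gene tdgf1 had 41.2 CPM unlabeled at 6 h, against 389, 146 and 202 CPM, with 90.4% labeled and an L over both kinds of RNA of 0.12. The receptor gene acvr1ba had 65.7 CPM at 6 h, against 1507, 848 and 409 CPM, with 69.9% labeled. The transducer smad5 was intermediate with 106 CPM at 6 h, against 405, 500 and 246 CPM, and the BMP receptor gene acvr1l was higher with 280 CPM, against 55.2, 47.7 and 124 CPM, and 22.3% labeled.

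RNAs localized to the vegetal pole of the one-cell embryo were more often lower. The list of such genes was made in the study from the same one-cell embryos. Of its 97 genes, 87 were matched and 85 described, with 49 lower (57.6%, beside 34.9% of all genes) and a median L of -2.41. A further 20 were kept (23.5%, beside 27.8%), 15 intermediate and 1 higher (1.18%, beside 13.1%). Described genes of at least 10 CPM in the embryos are a nearer background for a list made from embryos. Of these, 37.3% were lower, 29.2% kept and 8.85% higher. trim36, a ubiquitin ligase gene needed for the cortical microtubules of the egg in frogs, had 5.94 CPM at 6 h, against 639, 481 and 481 CPM. slbp2, which encodes a histone mRNA-binding protein known from frog oocytes, had 14.8 CPM at 6 h, against 1842, 1052 and 453 CPM, with 6.72% labeled, while its paralog slbp was kept with 69.02 CPM at 6 h, against 37.6, 193 and 206 CPM, and 92.6% labeled.

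The most abundant vegetal genes that were lower were map3k7, a kinase of stress and TGF-beta signaling, with 43.002 CPM at 6 h, against 3010, 1452 and 302 CPM, and shcbp1, with 6.89 CPM at 6 h, against 2694, 1355 and 391 CPM. Kept vegetal genes included the myosin light chain gene myl12.1, with 1263 CPM at 6 h, against 1521, 1202 and 314 CPM, and the Hippo effector gene yap1, with 147 CPM, against 485, 216 and 175 CPM. vrk3 was the one higher gene of the list. Genes of at least 10 CPM in the embryos were also grouped by a vegetal share. For it, each section was scaled to its own total, and mean levels were compared between 3 nearly equal groups of sections. The share is thus a relative concentration and not the part of a gene's RNA in the vegetal sections. Of the 89 genes with a vegetal share of 50% or more, 58.4% were lower. These genes overlap with the list of the study, whose median share was 54.9%, so this is not a separate result. Of the 204 genes with a share of 40 to 50%, 34.3% were lower, and of the 6090 genes below 40%, 37.1%. The yolk was removed before the 6 h library was made, so RNA that remained in the yolk was not sampled. The part of this step in the result was not tested.

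The gene families of general growth stood on the other side. Of 54 described genes matched by the ribosomal protein names, 47 (87.04%, beside 13.1% of all genes) were higher, and the median L was 2.78. Another 2 were kept (3.70%, beside 27.8%), 4 intermediate and 1 lower (1.85%, beside 34.9%). rps14 had 5970 CPM at 6 h, against 379, 398 and 1047 CPM in the embryos. rps21 had 2297 CPM at 6 h, against 62.9, 77.3 and 172 CPM, with 65.1% labeled. All 55 matched genes together summed to 94472 CPM at 6 h, against 14186, 11896 and 18425 CPM. Their labeled share at 6 h ranged from 29.9% to 78.2%. The lower gene, rps6kal, encodes a kinase rather than a ribosomal protein. The gene annotation and the library method differed between the groups. Their part in this result, and that of poly(A) tail length, was not tested.

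The other growth families were milder. The median L was 1.09 for 32 proteasome genes, 0.59 for 74 respiratory chain genes, 0.80 for 41 splicing factor genes and 0.55 for 45 genes with names of translation initiation factors. In this order 9, 18, 9 and 11 of them were higher (28.1%, 24.3%, 21.95% and 24.4%, beside 13.1% of all genes), and 3, 8, 2 and 3 were lower (9.38%, 10.8%, 4.88% and 6.67%, beside 34.9%). Among the initiation factor names, eif2ak3 is a kinase of the stress response and eif4ebp3l an inhibitor of initiation. eif2ak3 had 8.79 CPM at 6 h, against 3396, 658 and 348 CPM, and eif4ebp3l had 3170 CPM at 6 h, against 26.6, 72.3 and 315 CPM with 9.14% labeled. The respiratory gene with the lowest L, ndufs1, was one of the 14 genes with no count of either kind in any 6 h barcode, against 25.8, 74.7 and 133 CPM in the embryos. psmd7, of the proteasome lid, had 275 CPM at 6 h, against 0.71, 0.23 and 0.11 CPM, with 25.2% labeled.

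For 15 nucleoporin genes the median L was -0.55, which lay above the median of all genes but changed sign with TMM factors, to 0.12. nup188 had 3.09 CPM at 6 h, against 174, 80.5 and 101 CPM, whereas nup62l was kept with 201 CPM at 6 h, against 118, 107 and 293 CPM. Of 27 matched histone genes, 11 were described, with 4 higher (36.4%, beside 13.1% of all genes) and 5 kept (45.5%, beside 27.8%). The others were 1 intermediate and 1 lower (9.09%, beside 34.9%). Most replication histone genes had too few counts to be described, and they share near-identical copies. Few counts in these libraries do not show that the RNA itself was scarce. h2afx1 was higher with 397 CPM at 6 h, against 36.04, 113 and 65.8 CPM, and 67.4% labeled. Several identifiers carry the symbol h3f3b.1, and that with the most RNA at 6 h had 12900 CPM, against 373, 289 and 698 CPM, while the other described ones were kept.

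**Figure D4:**
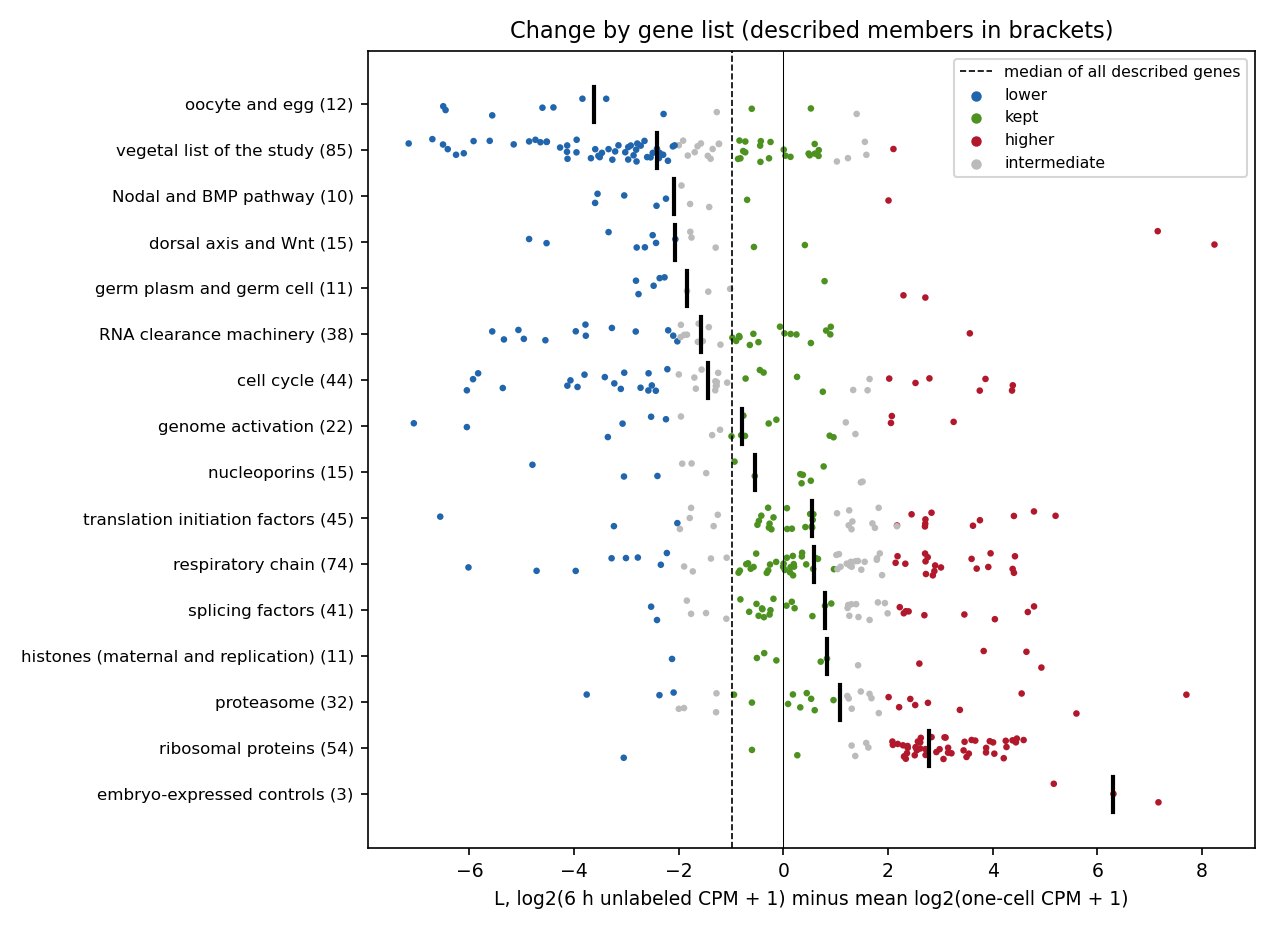
L, the log2 difference between unlabeled RNA at 6 h and the one-cell stage, is given on the x axis for every described member of 16 gene lists (rows, number of members in brackets), colored by class. Black bars are list medians and the dashed line is the median of all described genes, -0.99. Genes of the oocyte and egg have the lowest median, -3.61, and of the lists with more than 3 described members the ribosomal proteins have the highest, 2.78.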

How the data were processed

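For the tomo-seq samples, the authors mapped reads to GRCz10 (STAR 2.5.3a is named in the processing notes) and deposited expected counts per gene and section, which allow for molecules that happened to carry one and the same UMI. The table of embryo 2 holds the same kind of value in a tab-separated layout. For scSLAM-seq, the authors mapped reads to GRCz11 (Cell Ranger 3.0.2, STARsolo 2.7.0f) and deposited counts of labeled and unlabeled UMIs per gene and barcode. A UMI was labeled when it held more than 1 T-to-C change. The frog samples were not used here.

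A section was used when its total reached 10% of the median, which left 68, 70 and 74 of 96. Spike-in, mitochondrial and joined entries, whose reads cannot be divided between genes, were left out. Joined entries held 7.47% to 9.56% of embryo counts. Of 20504 identifiers in the embryos 19139 matched. Levels used a pseudocount of 1 CPM. No test was run, since there is 1 library at 6 h, and nothing in the labels says whether the embryos share parents. Named genes were the 12 most extreme lower and higher genes of at least 50 CPM, the 12 most abundant kept genes, and per list the most abundant and the extreme members, with the members of the germ plasm and genome activation lists, of which some are not reported here by name. Members of other lists, cldnd, cldng and sec61b were named after their values were seen. The members, lists and rules were chosen with earlier results of these data known. Alternatives were other scalings (edgeR 4.0.16), filters, pseudocounts, barcodes, sections and each embryo left out. Python 3.11.15, numpy 2.4.6, pandas 2.3.3, scipy 1.17.1, matplotlib 3.10.9 and R 4.3.3 were used. The code for the classes was run on simulated counts with planted changes larger than 4-fold and less spread than the real embryos had. That run cannot show how well the classes hold in these data. Searches for miR-430 sites and for codon content were not run, as no sequences were used here.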

Additional observations from a re-analysis of the deposited data

Results flagged for a closer look

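Data outside the comparison held signal in 2 places. Barcodes outside the 6847 cells held 24.7% of all unlabeled counts. With all barcodes included, the classes held 2398 lower, 1898 kept and 897 higher genes. In addition, 682 genes with at least 10 CPM in unlabeled RNA at 6 h had no entry of their own in any embryo. Of these, 551 stood in joined entries of the embryos and 131 in none, and together they held 15.5% of unlabeled counts outside mitochondrial genes.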

How the results depend on the processing

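No paired analysis was possible because the 6 h group has 1 library and no result comes from a test. Leaving out embryos in turn gave 2064 to 2687 lower, 1702 to 1929 kept and 757 to 1128 higher genes. The counts of lower and higher genes moved most with the scaling. Median-of-ratios size factors gave 1535 lower and 1569 higher genes and a median L over all described genes of 0.0406 instead of -0.99, and TMM factors gave 1366 higher genes. All of these 1535 but 1 were lower in the main classes. The count of kept genes changed little with the scaling, but its members changed. Median-of-ratios factors gave 1979 kept genes and TMM factors 1977. Of the 1901 kept genes, only 58.97% were kept again with median-of-ratios factors and 71.2% with TMM factors. With labeled and unlabeled counts together, 70.5% were kept again. Without embryo 1, 2 or 3, in this order, 80.8%, 88.7% and 74.01% were. A filter at 1 CPM gave 3433 kept genes, no filter gave 11231, and a filter on the one-cell mean alone left 565 higher genes. These changes follow from which genes are described. Subtracting embryo-made RNA read as unlabeled, an alternative chosen after seeing the data, turned L of nnr to -0.0336, L of tbxta to -0.14 and L of krt8 to -2.84, krt8 being a keratin gene of the enveloping layer. List medians that changed sign were genome activation (0.11) and nucleoporins (0.35) with median-of-ratios factors, nucleoporins (0.12) with TMM factors, and histones (-0.13) with the filter on the one-cell mean. Apart from these, 13 of 18 list medians moved by at least their SD among embryos with TMM factors, and 15 with median-of-ratios factors. With labeled and unlabeled counts together, 7 did. No lower gene became higher under any alternative, and 1 higher gene became lower, with the subtraction. For this, L must pass from -2 or below to 2 or above, or the reverse. The median L moved by at most 1.03, with median-of-ratios factors, so these counts cannot show smaller shifts. Of 129 named genes, 0 changed the sign of L in the lower or higher class under the other 15 alternatives. Such a change needs a shift of L by at least 2, so this count cannot show smaller shifts. Sign changes of kept and intermediate genes were not counted. L moved by at least the SD among embryos in 52 of the 129 with TMM factors and in 71 with median-of-ratios factors. Depth limits the scarce genes, since 3 counts at 6 h are 0.356 CPM.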

Other observations

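Gene families were also read by the letters of their symbols, a grouping made after the values were seen and given as counts only. Of 25 described usp genes, which encode deubiquitinases, 18 were lower (72%, beside 34.9% of all described genes), and of 12 zbtb genes, zinc finger factors, 10 (83.3%). Of 18 kif genes, the kinesin motors, 12 were lower (66.7%). On the other side, of 36 mrpl and 23 mrps genes, subunits of the mitochondrial ribosome, 1 each was lower, 15 and 12 were kept (41.7% and 52.2%, beside 27.8%) and 7 and 4 were higher (19.4% and 17.4%, beside 13.1%), with median labeled shares of 78.1% and 63.4% at 6 h. The 24 ddx genes, RNA helicases, included 13 kept (54.2%, beside 27.8%), 5 lower (20.8%, beside 34.9%) and 0 higher (beside 13.1%). By chromosome of GRCz10, the share of lower genes ranged from 29.6% of 311 on chromosome 6 to 44.8% of 201 on chromosome 25, beside 34.9% of all described genes. These are the extremes among the chromosomes, and the spread was not tested.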
